A study of Mus musculus with 39 samples.

Results

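Cyp1a1 and 6 other genes of the aryl hydrocarbon receptor pathway were followed in lung tissue of Crlj:CD1(ICR) mice, an outbred strain, all female: the cytochromes P450 Cyp1a1, Cyp1a2 and Cyp1b1, the receptor Ahr, its partner Arnt, its repressor Ahrr, and the feedback enzyme Tiparp. For each gene the probe sets annotated to that symbol alone were taken, and the probe set with the highest mean log2 signal over all 39 arrays represents it. The 7 genes are among 18193 genes on the array, and 5 of the 7 are among the 13020 genes whose signal was high enough to be tested. Cyp1a2 and Ahrr were not. The members were chosen by the measured Cyp1a1 values, which went in opposite directions with the 2 compounds in these same animals, so the differences of Cyp1a1 from control are given as a description, with no test.

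Mice were fed powdered diet without a test compound (control), with permethrin at 5000 ppm or 10000 ppm, or with isoniazid at 2500 ppm, for 7 or 14 days. Permethrin belongs to the pyrethroids, insecticides that hold nerve sodium channels open. Isoniazid, a drug against tuberculosis, serves as the tumour-positive control according to the labels. Each of the 8 groups holds 5 animals, 1 array per animal, except permethrin 10000 ppm at 14 days, which holds 4. Mice were aged 11 weeks after 7 days and 12 weeks after 14 days, and age and duration cannot be told apart. The 2 permethrin groups and the isoniazid group of a given time share the same control animals. In whole lung, fewer cells of a type and less RNA per cell cannot be told apart.

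The aryl hydrocarbon receptor is a ligand-activated transcription factor that waits in the cytoplasm with chaperones. After binding a ligand, which may be a foreign aromatic compound or a product of tryptophan, it enters the nucleus, pairs with Arnt and binds DNA at a short core, GCGTG, near its target genes. Cyp1a1 is its best known target and in lung is induced mainly in endothelium and in airway and alveolar epithelium, while Ahrr and Tiparp are targets that in turn limit the receptor.

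The sequence in front of a transcription start of each gene was read from RefSeq's promoter table (GRCm38.p6) to show how the core is spread over the members. Of the 7 members, 6 matched an entry (all but Ahr), and windows of 250 bases before the table's start were searched for GCGTG on both strands (CACGC is the same core on the other strand). Of these 6, 5 held at least 1 match (83.3%), against 9250 of 32851 promoters in the table (28.2%). The table's starts for Cyp1a1 and Arnt lie inside the gene's RefSeq range given with its values, not at its outer end. A match is a description of letters and not of a bound site. The windows run 5' to 3' on the gene's strand, with matches in capitals. Cyp1a1 (chr9:57697363-57697612, plus strand) has 1 match, 54 to 50 bases before the start, Cyp1a2 beside it (chr9:57683656-57683905, minus strand) has 0, Cyp1b1 (chr17:79715062-79715311, minus strand) has 1, Ahrr (chr13:74292332-74292581, minus strand) has 3, Arnt (chr3:95434140-95434389, plus strand) has 1, and Tiparp (chr3:65528197-65528446, plus strand) has 1. The windows of the 3 P450 genes and the 2 feedback genes are printed, since these are the members that the receptor is known to induce.
Cyp1a1: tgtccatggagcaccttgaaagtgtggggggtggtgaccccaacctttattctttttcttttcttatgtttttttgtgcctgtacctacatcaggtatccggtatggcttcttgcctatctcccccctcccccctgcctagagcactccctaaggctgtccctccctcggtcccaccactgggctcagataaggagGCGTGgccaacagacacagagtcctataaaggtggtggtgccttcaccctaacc
Cyp1a2: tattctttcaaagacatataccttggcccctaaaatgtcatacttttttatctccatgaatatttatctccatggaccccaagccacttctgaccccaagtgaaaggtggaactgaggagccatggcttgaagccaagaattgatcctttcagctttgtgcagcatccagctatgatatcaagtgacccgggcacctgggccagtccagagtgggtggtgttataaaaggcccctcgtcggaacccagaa
Cyp1b1: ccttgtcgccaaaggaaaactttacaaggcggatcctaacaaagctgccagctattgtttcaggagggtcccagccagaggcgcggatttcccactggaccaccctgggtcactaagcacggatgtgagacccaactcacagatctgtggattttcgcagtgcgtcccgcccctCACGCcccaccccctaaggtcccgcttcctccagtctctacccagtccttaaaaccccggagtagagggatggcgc
Ahrr: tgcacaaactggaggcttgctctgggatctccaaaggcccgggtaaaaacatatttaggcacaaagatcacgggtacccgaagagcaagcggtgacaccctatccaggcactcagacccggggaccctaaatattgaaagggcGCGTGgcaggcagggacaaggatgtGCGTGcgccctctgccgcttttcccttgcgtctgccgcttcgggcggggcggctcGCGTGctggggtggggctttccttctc
Tiparp: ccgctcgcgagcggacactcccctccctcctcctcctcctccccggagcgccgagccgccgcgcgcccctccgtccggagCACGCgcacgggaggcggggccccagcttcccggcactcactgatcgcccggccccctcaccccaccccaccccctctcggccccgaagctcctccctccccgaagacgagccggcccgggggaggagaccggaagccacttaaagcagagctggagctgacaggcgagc

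Values are log2 of the quantile-normalized signal, and differences are log2 differences with the standard error (SE) of the fit. The 39 arrays did not include identical pairs, and correlations between arrays ran from 0.862 to 0.945. The log2 ratio of 3' to 5' Gapdh control signal, a measure of RNA degradation, exceeded 0.7 in 7 arrays, all at 14 days. Lung markers (Sftpc, Sftpb, Sftpa1, Ager, Scgb1a1, Cldn18) lay at or above the 97.5th percentile of every array. Markers of 11 liver genes, 8 cardiac muscle genes and others varied between animals and are given beside the results they touch.

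Cyp1a1, a monooxygenase that oxidizes polycyclic aromatic compounds (1 probe set, gene at chr9:57687928-57703824, GRCm38.p6), was higher with isoniazid and lower with permethrin. The control animals at 7 days had 6.25, 5.64, 5.85, 5.07 and 7.18, and at 14 days 5.43, 5.79, 4.98, 4.85 and 5.17. With isoniazid the values were 8.65, 8.23, 7.55, 8.67 and 7.68 at 7 days and 8.41, 8.96, 7.89, 8.33 and 8.0 at 14 days. Every isoniazid animal lay above every control animal of its time, which held in that direction for 1.12% of the tested genes at 7 days and for 0.315% at 14 days.

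Permethrin animals had lower values, and the groups overlapped in part. At 5000 ppm Cyp1a1 was 4.68, 4.66, 4.42, 5.91 and 4.17 at 7 days and 4.08, 5.42, 5.00, 4.74 and 4.11 at 14 days. At 10000 ppm it was 5.22, 4.03, 5.09, 4.75 and 4.05 at 7 days and 2.89, 3.93, 1.97 and 3.97 at 14 days. At 10000 ppm and 14 days all 4 animals lay below every control (0.668% of genes did so in that direction), whereas in the other 3 permethrin groups 4, 3 and 3 of 5 did.

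On the deposited scale the same contrast reads as follows. Cyp1a1 signal was 35.2 to 145.5 in 7-day controls and 30.6 to 56.1 in 14-day controls, against 189 to 412 and 234 to 483.5 with isoniazid. In the group fed permethrin 10000 ppm for 14 days it was 4.63 to 14.8. On 2 of these 4 arrays, the first and the third, Cyp1a1 was below the highest Y-linked value on the arrays of these females (log2 3.40). For these 2 animals the value may be close to background, so the size of the difference is uncertain there.

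Compared with the control of the same time, Cyp1a1 was higher by 2.16 with isoniazid at 7 days (SE 0.37, 4.46-fold) and by 3.07 at 14 days (SE 0.37, 8.41-fold), a mean of 2.61 over both times (SE 0.26). With permethrin 5000 ppm the difference was -1.23 (SE 0.37) at 7 days and -0.57 (SE 0.37) at 14 days, and with 10000 ppm it was -1.37 (SE 0.37) and -2.06 (SE 0.39). The direct difference between permethrin 10000 ppm and isoniazid was -3.53 (SE 0.37) at 7 days and -5.13 (SE 0.39) at 14 days, and between permethrin 5000 ppm and isoniazid -3.39 and -3.65 (SE 0.37 for each). Among the tested genes, 0.0461% passed an adjusted p of 0.05 with isoniazid at 7 days and 0.0307% at 14 days. For permethrin, 0.0922% and 0.131% passed at 5000 ppm and 0.238% and 0.215% at 10000 ppm. The rule used these contrasts, so nothing is read from the share.

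**Figure D1:**
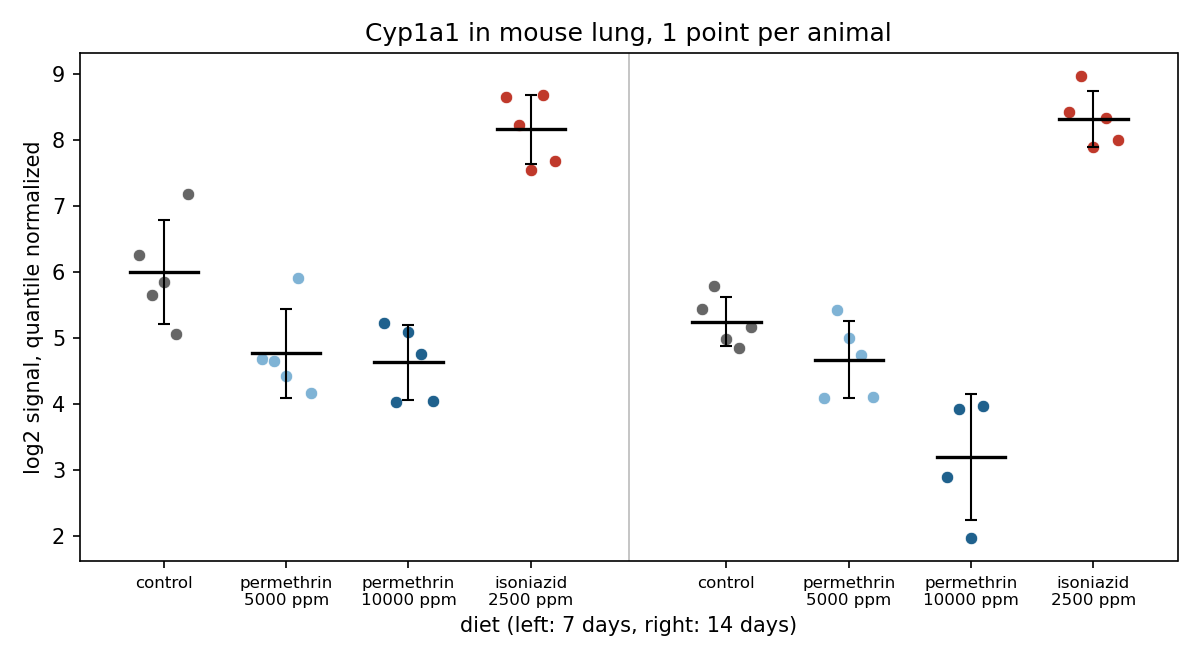
Cyp1a1 log2 signal (vertical axis, quantile normalized) in each animal of the 8 groups (horizontal axis; left of the line 7 days, right of it 14 days). Points are animals, bars the group mean and SD. Isoniazid means are 8.16 and 8.32, control means 6.0 and 5.25, and the lowest mean is 3.19 with permethrin 10000 ppm at 14 days.

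Ranked by group mean, Cyp1a1 stood at 8.32 (SD 0.42) with isoniazid at 14 days, 8.16 (SD 0.53) with isoniazid at 7 days, 6.0 (SD 0.79) in 7-day controls, 5.25 (SD 0.37) in 14-day controls, 4.77 (SD 0.67) and 4.67 (SD 0.58) with permethrin 5000 ppm at 7 and 14 days, 4.63 (SD 0.56) with permethrin 10000 ppm at 7 days and 3.19 (SD 0.95) with 10000 ppm at 14 days. Ranges of neighbours in this order did not overlap only between the isoniazid and control groups and between the last 2 groups. The isoniazid groups differed by 0.16, the control groups by 0.75, and the 3 permethrin groups in the middle by 0.09 and 0.04.

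The higher permethrin dose was not shown to differ from the lower. At 7 days Cyp1a1 at 10000 minus 5000 ppm was -0.14 (SE 0.37, 95% interval -0.89 to 0.61), and leaving out 1 animal could turn its sign. At 14 days it was -1.48 (SE 0.39, 95% interval -2.28 to -0.68), and the unadjusted p was 0.000584 but the limma p adjusted over 13020 genes was 0.994. Over both times it was -0.81 (SE 0.27), with an unadjusted p of 0.00487 and a limma adjusted p of 0.999. None of the 13020 genes passed the threshold for dose at 7 days (269 had an unadjusted p under 0.05) or at 14 days (493). The p-values of Cyp1a1 for dose, and for time in the next paragraph, come from arrays that also entered its choice. At 10000 ppm and 14 days, Cyp1a1 was below the highest Y-linked value (log2 3.40) on 2 of the 4 arrays. The size of the difference is uncertain there.

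Nor did the treatment effect on Cyp1a1 change detectably from 7 to 14 days. The 14-day effect minus the 7-day effect was 0.92 with isoniazid (SE 0.52, 95% interval -0.15 to 1.98), 0.66 with permethrin 5000 ppm (SE 0.52) and -0.68 with 10000 ppm (SE 0.54), each with a limma adjusted p of 0.9996 or more. The intervals are wide enough to hold changes of over 1 log2 unit. None of the 13020 genes passed the threshold in any of these comparisons. An unadjusted p under 0.05 was seen for 384 genes with isoniazid and for 371 and 293 with permethrin 5000 and 10000 ppm. In the controls alone, Cyp1a1 was -0.75 at 14 against 7 days (SE 0.37), with an unadjusted p of 0.0494 and a limma adjusted p of 0.357. Of the 13020 genes, 0.115% passed in that comparison.

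Markers of other tissues differed between some of the groups compared. At 7 days all 9 tested liver markers had negative differences in each treated group, with 0 past the threshold. Their medians were -0.62, -1.13 and -1.01 for permethrin 5000 and 10000 ppm and isoniazid. Of 5 club cell markers, 1 was higher past the threshold with permethrin 10000 ppm at 7 days, as were 0.23% of tested genes. The median of the 5 there was 0.04. With liver and cardiac signal as covariates, the 7-day Cyp1a1 differences were -1.27, -1.39 and 2.14. The mean liver signal at 14 days was 5.25 in controls (range 4.09 to 5.80) and 3.46 with isoniazid (range 3.0 to 4.08), and all 9 tested liver markers had negative differences there, with 0 past the threshold (1 was lower over both times). With permethrin 10000 ppm at 14 days it was 5.39 (range 3.89 to 6.47). The cardiac signal at 14 days was 6.89 in controls and 7.80, 7.99 and 7.94 in the 3 treated groups, and the 7 tested cardiac markers were positive in all 3, with 0 past the threshold. Brown fat signal at 14 days was 3.58 in controls and 4.16, 5.62 and 5.03 in those groups. Club cell signal at 14 days was 11.70 in controls and 12.46, 12.32 and 12.36, with 1 of 5 markers higher past the threshold at each permethrin dose. Of all tested genes 0.123% and 0.207% were so at 5000 and 10000 ppm. The median differences of the 5 markers were 0.17 and 0.20 at these doses and 0.11 with isoniazid. No marker signal was at 0, and the lowest single deposited value was 0.32. Endothelial group means lay between 9.93 and 10.18, and single animals between 9.58 and 10.325. Of the 8 endothelial markers, 0 passed in any comparison. At 7 days 4, 6 and 4 of the 8 had negative differences with permethrin 5000 and 10000 ppm and isoniazid. At 14 days 7, 8 and 5 did, with medians of -0.10, -0.14 and -0.06. Within groups the Pearson correlation with Cyp1a1 was -0.04 for liver, -0.17 for cardiac, -0.26 for club cell, 0.09 for endothelial markers and -0.43 for the Gapdh ratio. With liver and cardiac signal as covariates, the Cyp1a1 differences were -1.88 with permethrin 10000 ppm at 14 days and 3.23 with isoniazid at 14 days. Without the 7 arrays of high Gapdh ratio they were -1.80 and 3.17. The lowest Cyp1a1 value, 1.97, came from the array of permethrin 10000 ppm at 14 days with a Gapdh ratio of 1.26, and without it the difference there was -1.65. The part of brown fat, club cells and endothelium in the result was not tested.

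Cyp1b1, the extrahepatic relative of Cyp1a1 that is also induced by the receptor (3 probe sets, gene at chr17:79706940-79715061), had a smaller difference with isoniazid. Values were 5.79, 5.72, 5.93, 5.65 and 5.89 in 7-day controls and 6.13, 6.47, 6.10, 5.98 and 6.46 with isoniazid at 7 days, where all 5 lay above all controls (1.12% of tested genes did so in that direction). At 14 days they were 5.55, 5.29, 5.17, 5.68 and 5.25 in controls and 5.75, 5.90, 5.78, 5.28 and 6.39 with isoniazid, where 4 of 5 did. The difference was 0.43 (SE 0.17) at each time, and over both times 0.43 (SE 0.12, 95% interval 0.18 to 0.68), with a limma adjusted p of 0.126, short of the threshold (0.392% of genes passed). Without isoniazid replicate 4 at 14 days, the lowest of its group, it was 0.50 with a limma adjusted p of 0.0397. This was the only call in 20 omissions of 1 animal, over which the limma adjusted p ran from 0.0397 to 0.266.

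With permethrin, Cyp1b1 showed no shared direction. Its differences from control were -0.07 and -0.21 at 7 days and 0.26 and 0.28 at 14 days, for 5000 and 10000 ppm, each with an SE of 0.17 or 0.18. Its second brightest probe set gave 0.45 with isoniazid at 7 days (SE 0.23) but 0.03 at 14 days (SE 0.23). Compared with isoniazid at 7 days, Cyp1b1 with permethrin 10000 ppm was -0.65 (SE 0.17), with a limma adjusted p of 0.228, and with array weights it was -0.67 with a limma adjusted p of 0.0297.

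Ahr, the receptor itself (2 probe sets, gene at chr12:35497979-35534989), ran from 9.13 to 10.35 over all 39 animals. Its group means ran from 9.35 to 9.66. Differences from control lay between -0.22 and 0.09, with a smallest limma adjusted p of 0.883, and the interval for isoniazid at 7 days was -0.52 to 0.07. The second, dimmer Ahr probe set (mean log2 3.74) gave a negative difference in every comparison with control. These ran from -0.79 (SE 0.51) with permethrin 5000 ppm at 14 days to -0.11 (SE 0.51) with 5000 ppm at 7 days.

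Arnt, the partner without which the receptor does not bind DNA (5 probe sets, gene at chr3:95434367-95497240), ran from 6.57 to 8.40. With permethrin 10000 ppm at 14 days the 4 animals had 6.57, 7.37, 8.18 and 8.04 against 7.95, 7.88, 7.86, 8.29 and 8.40 in controls. That difference was -0.54 (SE 0.23, limma adjusted p 0.717). The other 4 Arnt probe sets gave -0.08, 0.12, -0.48 and 0.32 in the same comparison, so they did not share a direction. With isoniazid at 7 days the brightest gave 0.02 (SE 0.22) and the second brightest -0.34 (SE 0.11). The rest gave 0.28, -0.05 and -0.11 there.

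Tiparp, a mono-ADP-ribosyltransferase that the receptor induces and that limits it (3 probe sets, gene at chr3:65528447-65555518), ran from 8.30 to 9.06. With isoniazid at 7 days it was 9.02, 8.72, 9.06, 8.40 and 8.38, against 8.39, 8.46, 8.34, 8.33 and 8.69 in controls, and 3 of 5 lay above all controls. The difference was 0.27 (SE 0.12, limma adjusted p 0.690). The other 2 Tiparp probe sets gave 0.01 and -0.01.

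Cyp1a2, the liver-typical relative (1 probe set, gene at chr9:57676937-57683655), ran from -1.86 to 3.34, and Ahrr, the repressor that competes with Ahr for Arnt (1 probe set, gene at chr13:74211118-74292331), from -2.60 to 3.25. Both were below the highest Y-linked signal in these females (3.40) on 39 of 39 arrays, so no change of either could be read. In all, 0 of the 4 tested members other than Cyp1a1 passed the limma threshold in any of 20 comparisons, while some had an unadjusted p under 0.05. There were 2 with isoniazid at 7 days (849 of all genes tested), 1 with isoniazid at 14 days (785) and over both times (1190), and 1 with permethrin 10000 ppm at 14 days (787). There was also 1 in each of 3 comparisons of permethrin with isoniazid, namely 10000 ppm at 7 days (467) and 14 days (654) and 5000 ppm at 7 days (643), and 1 between the control groups (1810). Over all genes, 0.223% and 0.499% were called with permethrin 5000 and 10000 ppm over both times. Against isoniazid 0.0845% and 0.154% were called with 5000 ppm at 7 and 14 days and 0.184% and 0.2% with 10000 ppm. For dose over both times 0.00768% were called. Their median difference from control ran from -0.12 to 0.15 over the 6 comparisons, against -0.01 to 0.02 for all genes tested.

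**Figure D2:**
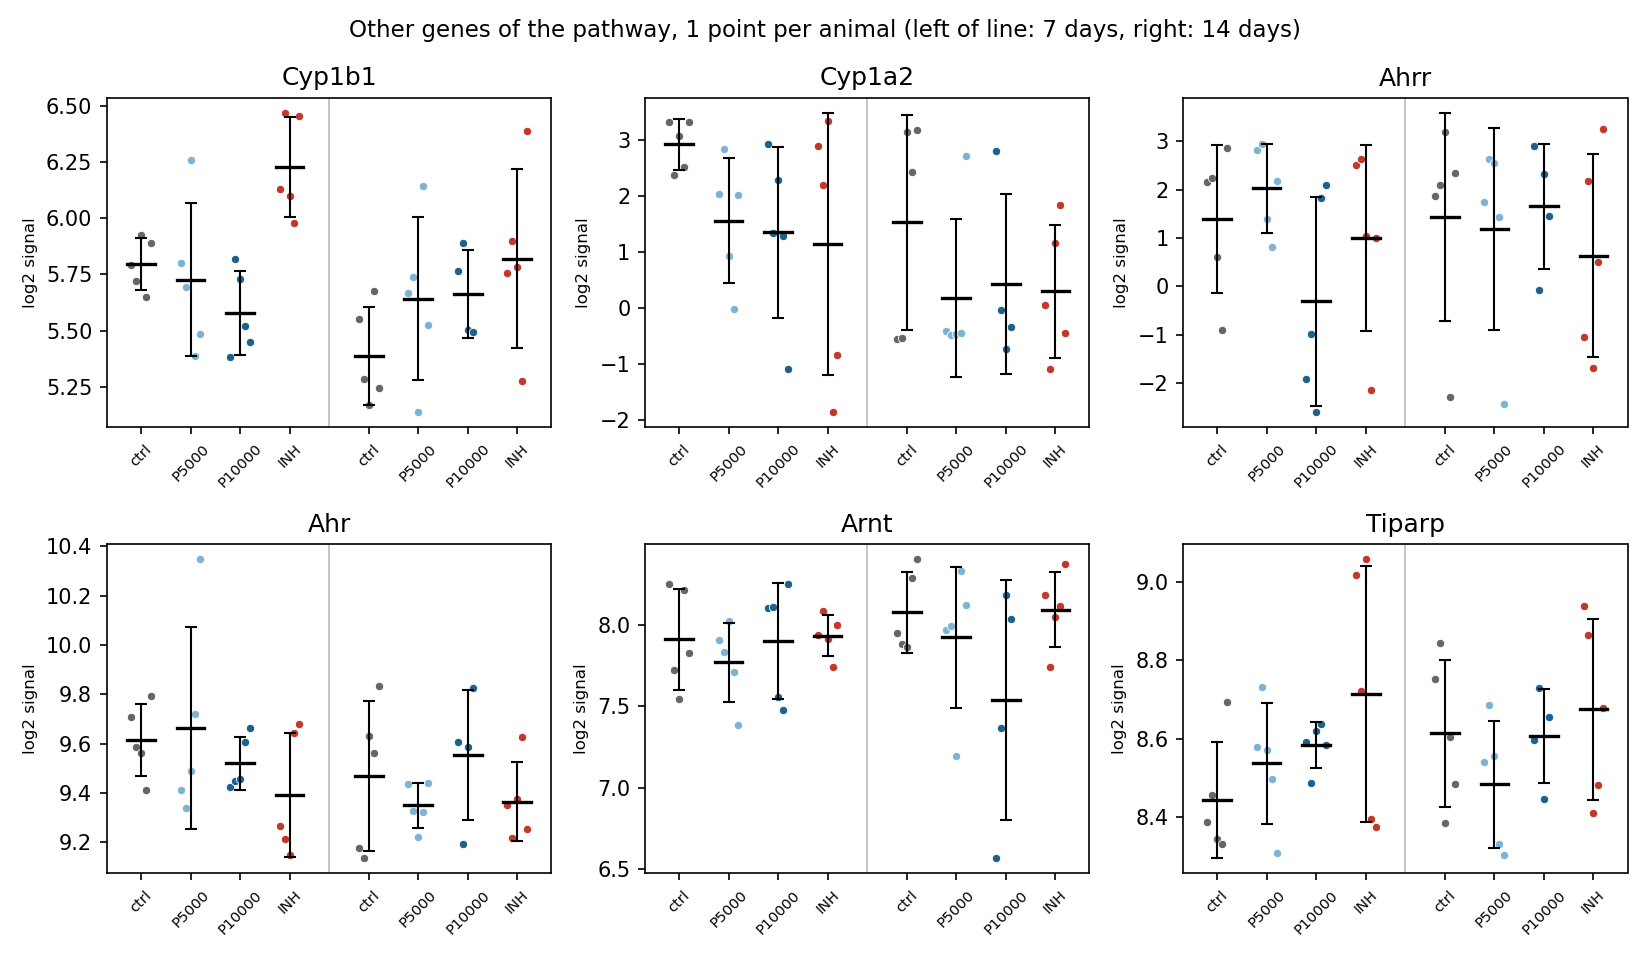
Log2 signal (vertical axes) of the other members in each animal, in the 8 groups (ctrl, control; P5000 and P10000, permethrin; INH, isoniazid; left of the line 7 days, right of it 14 days). Points are animals, bars the mean and SD; the vertical scales differ. Cyp1b1 with isoniazid at 7 days lies above its controls, from 5.98 upward, as was seen for 1.12% of tested genes. Over all 39 arrays Cyp1a2 runs from -1.86 to 3.34 and Ahrr from -2.60 to 3.25, and their scatter differs between groups.

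Around these members, 52 genes in 6 lists were examined, of which 43 were on the array and 33 were tested. The lists were written with earlier results of these data known, so their counts and p-values are no independent test. These lists were the receptor complex, relatives and other partners of Arnt, the classical battery of Ah genes, other reported receptor targets, enzymes that make tryptophan ligands, and the redox partners of P450 enzymes. In each of the 4 permethrin comparisons, 3 of the 33 were past the threshold, all higher, and all were the tested battery genes: Nqo1 (quinone reductase), Aldh3a1 (aldehyde dehydrogenase) and Gsta2 (glutathione S-transferase). Over all tested genes 0.0922% and 0.23% were higher past the threshold at 7 days with 5000 and 10000 ppm, and 0.123% and 0.207% at 14 days. With isoniazid 0 of 33 passed at either time, where 0.0461% and 0.0307% of all tested genes passed at 7 and 14 days. At such shares a count of 0 is no result about the lists. The medians of the 33 were between -0.01 and 0.09 in the 6 comparisons.

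The battery genes are known targets of the receptor and also of the factor NRF2. All 3 rose with permethrin, where Cyp1a1 was lower. Nqo1 was 4.86, 4.65, 4.86, 4.95 and 4.95 in 7-day controls, and 6.53, 6.61, 7.17, 6.97 and 6.72 with permethrin 10000 ppm at 7 days. Nqo1 rose by 1.64 (SE 0.23, limma adjusted p 9.91e-05) and 1.95 (9.92e-07) at 7 days and by 1.47 (0.000561) and 1.69 (8.28e-05) at 14 days. With isoniazid its difference was 0.16 and 0.22, and over both times 0.19 (limma adjusted p 0.788).

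Aldh3a1 rose by 1.51 and 2.45 at 7 days and 1.78 and 2.58 at 14 days with the 2 permethrin doses, and Gsta2 by 1.79 and 2.53, and 1.62 and 2.21. With isoniazid Aldh3a1 differed by 0.43 and 0.59, and over both times 0.51 (limma adjusted p 0.393), and Gsta2 by 0.20 and 0.14. Every permethrin animal lay above every control of its time for all 3 genes, as did 0.399% and 0.868% of tested genes at 7 days and 0.668% and 1.21% at 14 days. With only the compared groups in the model, Aldh3a1 at 5000 ppm for 7 days and Nqo1 at 10000 ppm for 14 days were no longer called (limma adjusted p 0.191 and 0.154). The Aldh3a1 call was also lost on leaving out control replicate 4 or 5 or permethrin replicate 5 (0.0854, 0.0956 and 0.0829). Permethrin 10000 ppm against isoniazid, the direct comparison, gave 1.79 and 1.47 for Nqo1 (limma adjusted p 7.41e-06 and 0.000632), 2.02 and 1.99 for Aldh3a1 (4.37e-05 and 0.000144) and 2.34 and 2.07 for Gsta2. The battery genes thus differed between the compounds in the opposite direction to Cyp1a1.

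**Figure D3:**
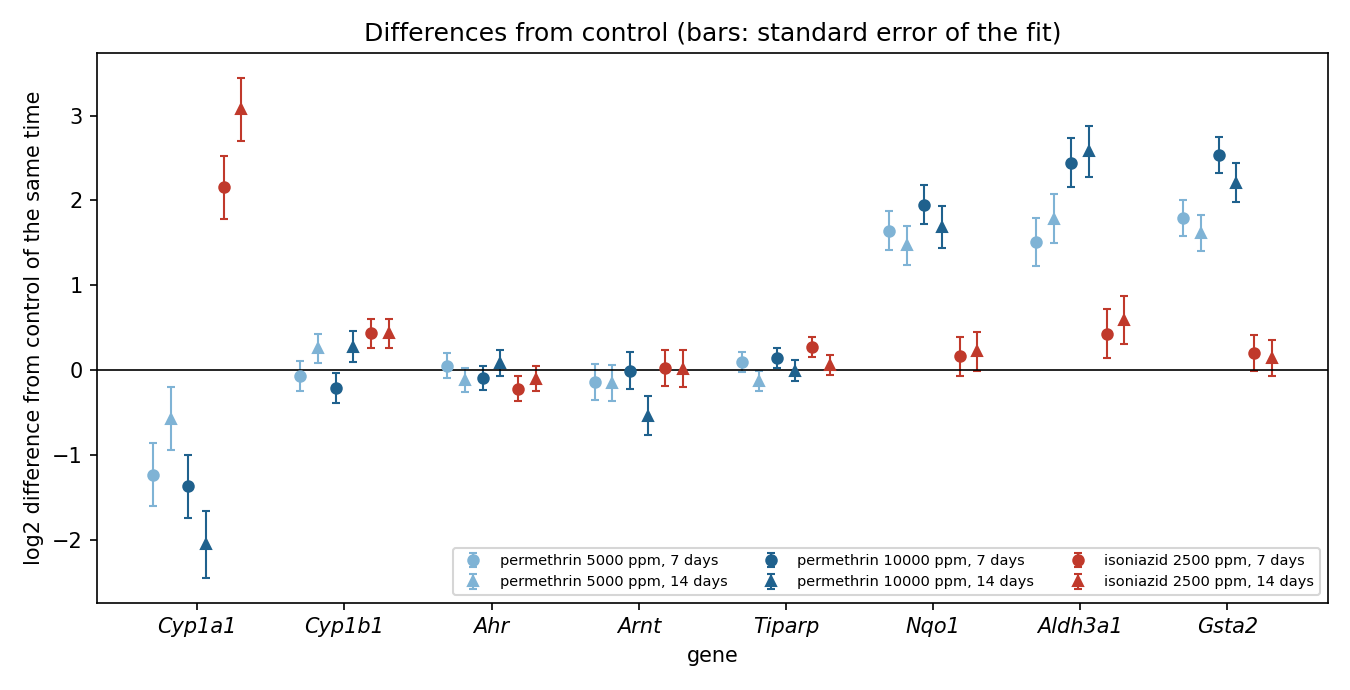
Log2 difference from the control of the same time (vertical axis) for the 5 tested members and 3 battery genes (horizontal axis); circles are 7 days, triangles 14 days, bars the SE of the fit. Cyp1a1 lies between -2.06 and -0.57 with permethrin and at 2.16 and 3.07 with isoniazid, while Nqo1, Aldh3a1 and Gsta2 lie from 1.47 to 2.58 with permethrin.

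Over both times 2 of the 33 genes were higher with isoniazid. The amino-acid transporter Slc7a5 rose by 1.01 (SE 0.23, limma adjusted p 0.0310) and the electron carrier Fdx1 by 0.30 (SE 0.07, limma adjusted p 0.0303). Neither passed at a single time, and 0.223% of genes were higher past the threshold. Both calls were lost under median centring, with every probe set tested, with the liver and cardiac covariates and without the 7 arrays of high Gapdh ratio. Leaving out 1 animal ended the Slc7a5 call in 8 of 20 cases and the Fdx1 call in 12 of 20. Among the other list genes, Arntl (also called Bmal1) was -0.75 (limma adjusted p 0.0683) and Lrat -0.84 (0.0764) with isoniazid over both times, both short of the threshold. Alas1, the first enzyme of heme synthesis, rose by 0.99 at 7 days with isoniazid (SE 0.13, limma adjusted p 0.000103) and by 0.67 at 14 days (0.0351, a call lost in several alternatives), and Hmox1, which breaks heme down, rose by 0.78 with permethrin 10000 ppm at 7 days (limma adjusted p 0.0110, and 0.201 under median centring).

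Genes whose pattern resembled Cyp1a1 most over the 39 arrays were Cog5 (Pearson r 0.62), Fabp5 (0.62), Hsd17b7 (0.61), Alas1 (0.61), Cth (0.58) and Nipal1 (0.57), and those most opposed were Ces1f (-0.82), Ces1g (-0.78) and Gpx2 (-0.70). These are descriptions with no p: the arrays share normalization and groups, and the isoniazid arrays lie apart. Within the 29 arrays without isoniazid the values were 0.49, 0.23, 0.56, -0.23, 0.01 and 0.46 for the 6 most alike, and -0.57, -0.51 and -0.64 for the 3 opposed. Within groups, after each group's mean was taken off, the 3 opposed genes had -0.08, 0.05 and -0.07, so their opposition to Cyp1a1 lay in the differences between groups. The 6 most alike had 0.53, 0.39, 0.45, 0.08, 0.30 and 0.50. Among the members Cyp1b1 had 0.42, Tiparp 0.35, Arnt 0.21 and Ahr -0.25 over all arrays. In the same order they had 0.01, 0.11, 0.14 and -0.03 without isoniazid, and -0.09, 0.41, -0.23 and -0.11 within groups. Nqo1 had -0.61 over all arrays, 0.30 within the 10 isoniazid arrays and 0.25 within groups.

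**Figure D4:**
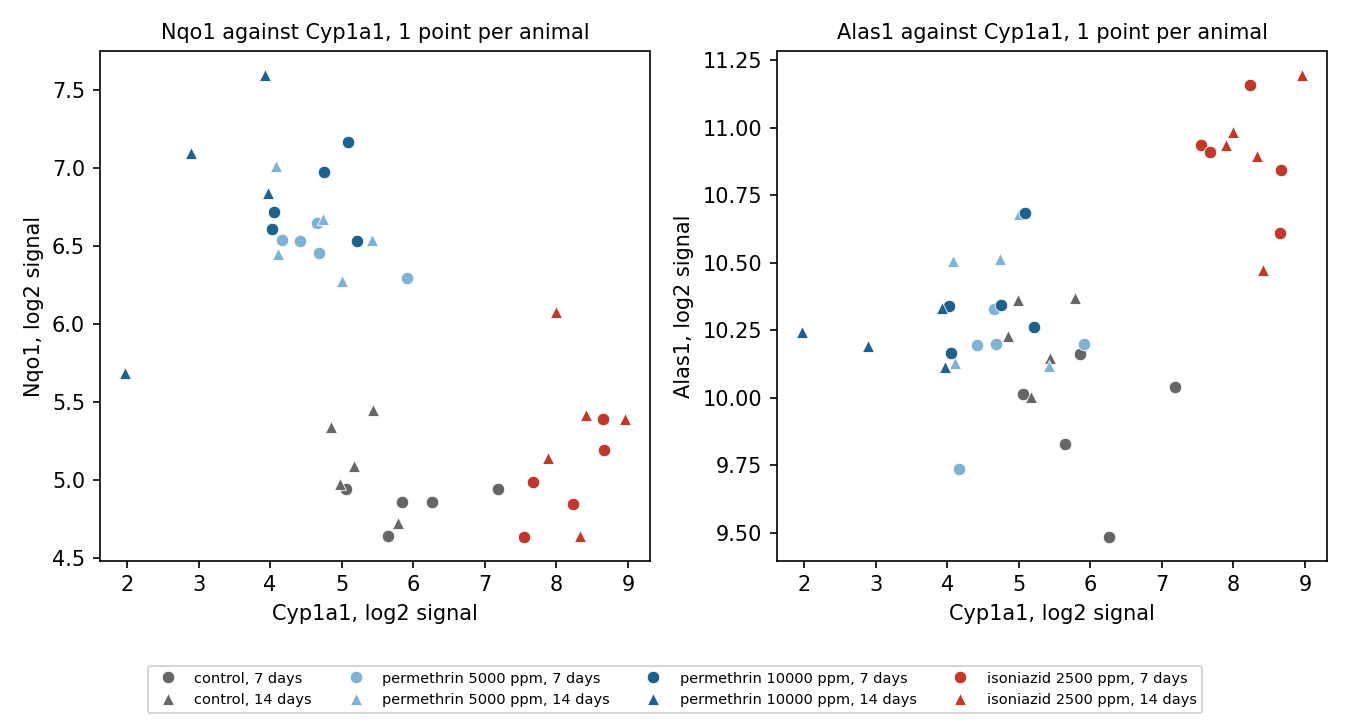
Nqo1 (left) and Alas1 (right) log2 signal against Cyp1a1 log2 signal (horizontal axes), 1 point per animal, coloured by diet, circles 7 days and triangles 14 days. Permethrin animals lie at Cyp1a1 of 5.91 or less with Nqo1 of 5.69 to 7.60, isoniazid animals at Cyp1a1 of 7.55 or more with Nqo1 of 4.63 to 6.08 and Alas1 of 10.47 to 11.20.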

How the data were processed

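Lung RNA of 39 mice was hybridized to Affymetrix arrays (3' labelling, per the labels' protocols). The authors deposited linear signal intensity for every probe set, made with MAS5 according to the submitters' processing notes, without a stated version. Here log2 of these signals was taken without a pseudocount and quantile normalized, which removes a change shared by most genes. Each gene is its brightest probe set, and genes were tested where the mean log2 signal was at least 3.43 (a signal of 10.8, the upper 60% of probe sets), 13020 in all. A linear model of 8 group means was fitted with limma 3.58.1 (empirical Bayes with trend) in R 4.3.3 with the data.table package (1.17.8). P-values are two-sided and adjusted by Benjamini-Hochberg over 13020 genes, threshold 0.05. The fit was checked on simulated data. The members and lists were chosen with earlier results of these data known. Genes named are the members, the 6 most and 3 least correlated with Cyp1a1, the battery genes, the list genes past the threshold, and Alas1 and Hmox1; Arntl and Lrat were named after their values were seen. Hsp90ab1, Por and Gsta1 were among the list genes without a probe set of that symbol alone. Group sizes of 4 and 5 arrays limit the precision. Alternatives tried were a pseudocount of 4, median centring, the deposited scaling, other filters, every probe set, only the compared groups, array weights, replicate number as a block, tissue covariates, and leaving out arrays.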

Additional observations from a re-analysis of the deposited data

Results flagged for a closer look

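Nqo1 was lowest in 7-day control replicate 2, at 4.65, far from the nearest of the others at 4.86 by Dixon's test for a group of 5. In 64 groups of values checked, this was the 1 that stood out. Chance alone flags about 1 in 20 of such groups, so 1 in 64 is no more than chance gives.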

How the results depend on the processing

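The direction of the Cyp1a1 differences, for which the gene was chosen, did not change under any setting tried. The other filters, every probe set and only the compared groups cannot move a difference of group means, so they are no check of direction. Over the alternatives other than leaving out animals, the Cyp1a1 differences ran from -1.27 to -1.12 and -1.43 to -1.24 with permethrin 5000 and 10000 ppm at 7 days, from -0.59 to -0.43 and -2.11 to -1.63 at 14 days, and from 2.08 to 2.21 and 2.94 to 3.23 with isoniazid. The pseudocount of 4 gave the smallest of the permethrin differences at 7 days and of that at 10000 ppm for 14 days (-1.63), where Cyp1a1 is dimmest, and the smallest with isoniazid. Leaving out 1 animal gave -1.52 to -0.94, -1.61 to -1.08, -0.76 to -0.43, -2.32 to -1.65, 1.92 to 2.45 and 2.91 to 3.21. The dose difference of Cyp1a1 at 7 days turned sign when 1 animal was left out: 0.15 without permethrin 5000 ppm replicate 4, 0.012 without 10000 ppm replicate 2 and 0.0054 without replicate 5 (range -0.29 to 0.15). The count of list genes past the threshold with isoniazid over both times, 2, became 0 with median centring, with every probe set tested, with the covariates and without the 7 arrays of high Gapdh ratio, 1 with only the compared groups, and 0 to 3 when 1 animal was left out. With array weights it was 1 for isoniazid at 7 days (also 0 to 1 on leaving out animals) and 5 for permethrin 10000 ppm over both times, and 1 other member passed for permethrin 10000 ppm against isoniazid at 7 days (Cyp1b1, -0.67, limma adjusted p 0.0297). Cyp1b1 with isoniazid over both times passed in 1 of 20 omissions, without isoniazid 14-day replicate 4 (0.50, limma adjusted p 0.0397), so that count was 0 to 1. Aldh3a1 with permethrin 5000 ppm at 7 days and Nqo1 with 10000 ppm at 14 days (limma adjusted p 0.191 and 0.154) were lost with only the compared groups. Replicate number as a block gave -2.11 for Cyp1a1 with permethrin 10000 ppm at 14 days and changed no call. Of 29 same-number pairs, 8 correlated above 0.1 (range -0.34 to 0.27). Pairs of different numbers were not compared, so these values cannot show whether the numbers pair the animals. The causes were not tested.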
